A study of Arabidopsis thaliana and Ginkgo biloba and Brassica rapa with 14 samples.

Results

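The tRNA methylation profile of the gymnosperm Ginkgo biloba was set against that of 3 angiosperms, site by site. A deposited table lists percent methylation at 59 sites of 38 tRNA isodecoders, which are tRNAs grouped by amino acid, anticodon and the genome they come from. G. biloba had a number at 33 of the sites, and 31 sites of 17 isodecoders were compared because at least 2 of the angiosperms also had one. All 3 angiosperms had a number at 30 of the compared sites and 2 of them at the remaining site. Of the compared sites, 27 lie in 13 isodecoders of nuclear origin, 3 in chloroplast isodecoders and 1 in an isodecoder found in both the nuclear and the chloroplast genome.

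The samples were wild type plants, and their RNA was purified from gels to enrich for tRNAs. Arabidopsis thaliana was sampled as seedlings at 10 days after germination, Triticum turgidum subsp. durum (durum wheat, T. durum) as flag leaf, and Brassica rapa and G. biloba as leaf by the sample labels but as shoot apexes by the methods of the study. G. biloba, B. rapa and T. durum were represented by 1 library each, and the A. thaliana values are the authors' mean over biological replicates, of which 3 libraries are labelled. The G. biloba plants stood in a botanic garden and the A. thaliana and B. rapa plants in controlled rooms, so that species, tissue and growth conditions cannot be told apart.

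Methylation was measured by RBS-seq, in which bisulfite turns cytosine into uracil but leaves 5-methylcytosine (m5C) as it is. Some other modified cytosines resist bisulfite too, and the paper therefore treats its sites as candidates for m5C. Methylation here means the share of reads left unconverted. The value at a site is the percentage of reads that kept the cytosine, out of those reading either cytosine or thymine, and the authors asked for at least 5 reads and took 20% as the threshold for a methylated site. The number of reads behind each value is unknown, the table does not give the replicate values behind the means, and no test was made. All comparisons below describe these libraries, and every difference is in percentage points.

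In plants as in animals, m5C is placed on tRNAs after transcription by enzymes that each recognize certain structural positions. Enzymes of the TRM4 family (NSUN2 in mammals, TRM4B in A. thaliana) methylate positions 48, 49 and 50, where the variable loop meets the T stem, and TRDMT1 (DNMT2) methylates position 38 of the anticodon loop in tRNA Asp(GTC) and some other tRNAs. In mammals, m5C at these positions protects tRNAs from cleavage. Some A. thaliana sites at positions 48, 49 and 72 kept methylation in the paper's mutant lacking both TRM4B and TRDMT1. The paper proposes another enzyme for those sites and does not exclude other modifications that resist bisulfite.

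The tRNAs on which the comparison turns are shown by their A. thaliana consensus sequences. These place each site in the anticodon loop, where the variable loop meets the T stem, or in the acceptor stem. They were copied from the deposited reference list (TAIR10) and are not G. biloba sequence, 5′ to 3′ as DNA letters, without the CCA end. Capitals mark the sites with a number in G. biloba.
tRNA Asp(GTC): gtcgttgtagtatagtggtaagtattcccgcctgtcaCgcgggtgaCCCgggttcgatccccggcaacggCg
tRNA Gly(GCC): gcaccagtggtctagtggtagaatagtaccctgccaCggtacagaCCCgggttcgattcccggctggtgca
tRNA Gly(TCC): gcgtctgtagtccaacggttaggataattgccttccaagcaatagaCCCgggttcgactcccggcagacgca
tRNA Glu(CTC): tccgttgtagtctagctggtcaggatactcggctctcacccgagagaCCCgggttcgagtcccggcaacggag
tRNA Gln(CTG): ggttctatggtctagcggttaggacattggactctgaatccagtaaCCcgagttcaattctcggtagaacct
tRNA His(GTG): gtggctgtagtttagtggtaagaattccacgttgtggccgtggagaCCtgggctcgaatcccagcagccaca
tRNA Arg(ACG): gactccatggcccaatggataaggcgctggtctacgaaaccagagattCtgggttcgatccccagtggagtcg
tRNA Ser(AGA): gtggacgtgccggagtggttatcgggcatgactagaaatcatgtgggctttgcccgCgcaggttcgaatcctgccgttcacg
tRNA Thr(CGT): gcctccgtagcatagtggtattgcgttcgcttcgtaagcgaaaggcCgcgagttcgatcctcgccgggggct
tRNA Lys(CTT): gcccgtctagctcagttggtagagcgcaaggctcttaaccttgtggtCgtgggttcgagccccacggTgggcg
Each sequence stands for several tRNA genes. Asp(GTC) stands for 25 genes, the first listed at chr1:877648-877719, Gly(GCC) for 22 (chr1:2107398-2107468) and Gly(TCC) for 12 (chr1:2588525-2588596). Glu(CTC) stands for 13 genes (chr1:10207306-10207378), Gln(CTG) for 9 (chr2:7039094-7039165) and His(GTG) for 10 (chr1:552640-552711). Arg(ACG) stands for 9 genes (chr4:15183084-15183156), Ser(AGA) for 37 (chr1:5380907-5380988), Thr(CGT) for 5 (chr1:4709635-4709706) and Lys(CTT) for 17 (chr1:309275-309347). All are annotated as tRNA genes in RefSeq (TAIR10.1), whose coordinates were not used. In the consensus sequences, 32 of the 33 sites with a number in G. biloba fell on a cytosine, the exception being position 68 of Lys(CTT).

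G. biloba was methylated at most sites that the angiosperms methylate, but it was often the lowest of the vascular plants. At 27 of the 31 compared sites (87.1%) G. biloba was at or above the threshold, and all 27 are nuclear. The median of the angiosperms was at the threshold at 25 sites, and G. biloba was at it at all 25. G. biloba lay below the range of the angiosperms at 15 sites (48.4%), within it at 13 (41.9%) and above it at 3 (9.68%). The 15 sites below belong to 7 nuclear isodecoders.

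The differences varied widely in size. Over the 27 nuclear sites the median methylation was 83% in G. biloba and 91% for the medians of the angiosperms, and the median difference per site was -2 points, with a range from -53.5 to 26 points. G. biloba was lower than the angiosperm median at 18 nuclear sites, equal at 3 and higher at 6. It was within 5 points of it at 12 nuclear sites and over 10 points from it at 12. Averaged within each tRNA, the difference from the angiosperm median was below 0 in 7 of the 13 nuclear tRNAs and above 0 in 6. Values of 90% or more were found at 11 nuclear sites in G. biloba and at 16 for the angiosperm median. At the 15 sites below, G. biloba missed the lowest angiosperm by a median of 7 points, from 0.667 to 47 points. It missed by more than 5 points at 8 sites (25.8% of those compared), by more than 10 at 6 and by more than 20 at 3. It exceeded the highest angiosperm by more than 5 points at 2 sites (6.45%), C48 of Thr(CGT) and C68 of Lys(CTT). The latter reached the threshold in G. biloba alone.

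**Figure D1:**
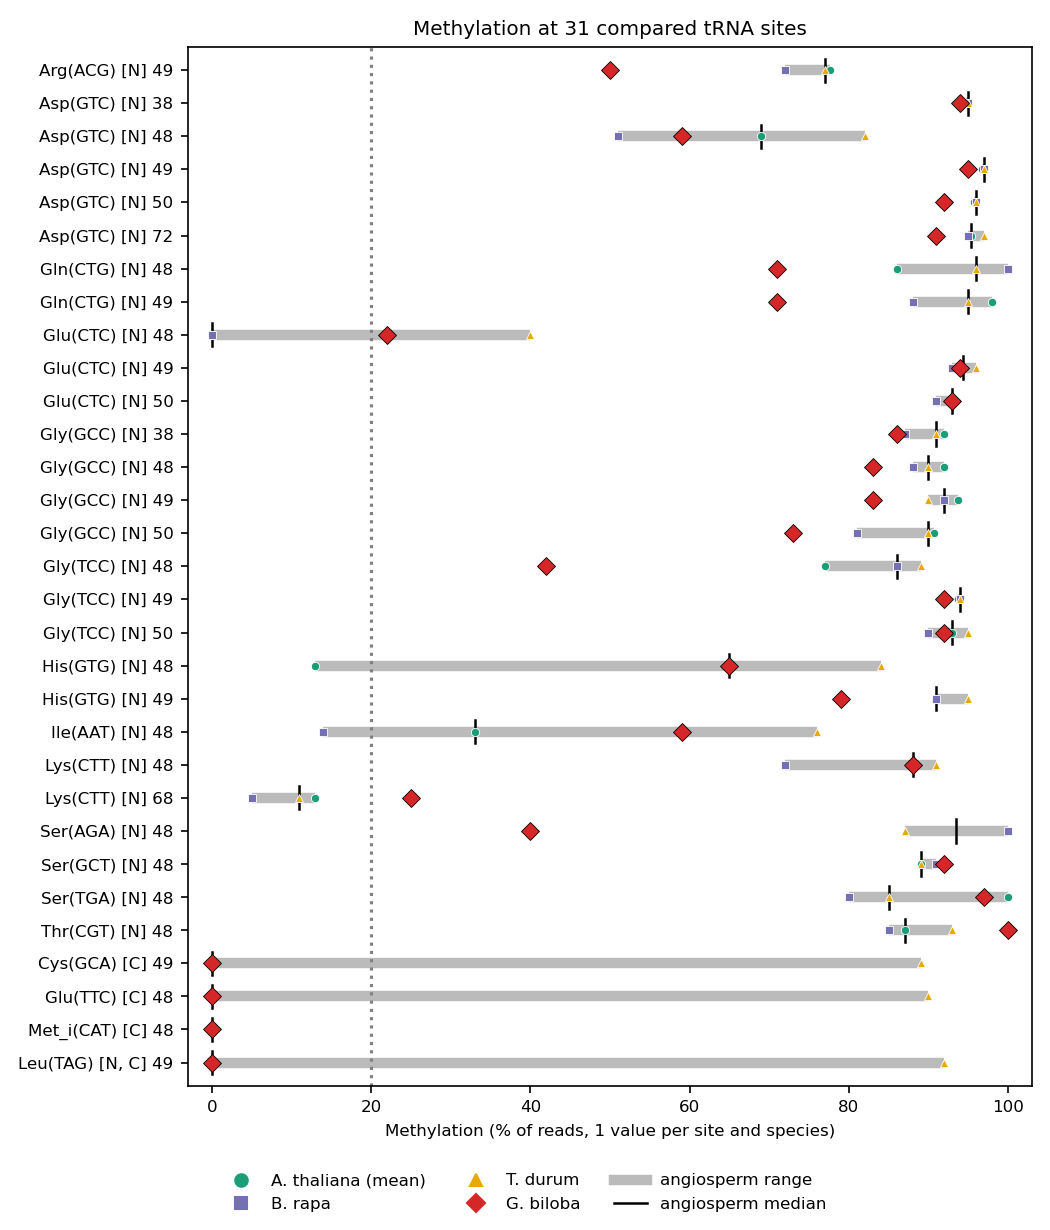
Methylation (%, horizontal axis) at the 31 compared sites, named by isodecoder, genome of origin (N nuclear, C chloroplast) and structural position. Points are values of single libraries, or for A. thaliana the authors' mean over replicates. Grey bars are the range and black marks the median of the 3 angiosperms (2 at C48 of Ser(AGA)), and the dotted line is the 20% threshold. G. biloba lies left of the grey bar at 15 sites, by 47 points at C48 of Ser(AGA) and by 0.667 points at C38 of Asp(GTC).

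How each site in the table was chosen bears on these counts. In all 59 sites at least 1 of the 6 species reached the threshold, and the lowest of the highest values per site was 25%. G. biloba alone reached the threshold at 1 site, C68 of Lys(CTT), so that without the G. biloba value this site would not have met the threshold in any species. This site is among those counted above the range. Among the compared sites, T. durum alone reached the threshold at 3 and the alga Nannochloropsis oculata alone at 1, and these are the 4 sites that are not purely nuclear.

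The anticodon loop position C38, the target of TRDMT1, was highly methylated in G. biloba in both tRNAs that could be compared. C38 of Asp(GTC) was at 94% in G. biloba, 94.7% in A. thaliana, 95% in B. rapa and 95% in T. durum. C38 of Gly(GCC) was at 86% in G. biloba, 92% in A. thaliana, 87% in B. rapa and 91% in T. durum. G. biloba was the lowest of the vascular plants at both, by 0.667 and 1 point. C38 of Gly(CCC), which lay between 90 and 95% in the angiosperms, was not determined in G. biloba.

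tRNA Asp(GTC) carried 5 of the compared sites, and 4 of them were at 91% or more in G. biloba. C49 was at 95% in G. biloba, 96.7% in A. thaliana, 97% in B. rapa and 97% in T. durum. C50 was at 92% in G. biloba, 95.7% in A. thaliana, 96% in B. rapa and 96% in T. durum. C72, which lies in the acceptor stem and pairs with the first base of the tRNA, was at 91% in G. biloba, 95.3% in A. thaliana, 95% in B. rapa and 97% in T. durum. At C38, C49, C50 and C72 G. biloba was therefore the lowest, yet within 4.33 points of the angiosperm median. C48 was the exception, with 59% in G. biloba, 69% in A. thaliana, 51% in B. rapa and 82% in T. durum, so that G. biloba lay inside the range there.

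In the glycine tRNAs the differences were larger, and they fell at different positions. In Gly(GCC) every compared site of G. biloba lay below the angiosperms. C48 was at 83% in G. biloba, 92% in A. thaliana, 88% in B. rapa and 90% in T. durum. C49 was at 83% in G. biloba, 93.7% in A. thaliana, 92% in B. rapa and 90% in T. durum. C50 was at 73% in G. biloba, 90.7% in A. thaliana, 81% in B. rapa and 90% in T. durum. The 4 sites of Gly(GCC) thus spanned 13 points in G. biloba, from 73 to 86%.

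In Gly(TCC), G. biloba lay below the range at C48 and C49 and within it at C50, and only the difference at C48 was over 5 points. C48 was at 42% in G. biloba, 77% in A. thaliana, 86% in B. rapa and 89% in T. durum, 35 points under the lowest angiosperm. The neighbouring C49 was at 92% in G. biloba, 93.7% in A. thaliana, 94% in B. rapa and 94% in T. durum, and C50 was at 92% in G. biloba, 93% in A. thaliana, 90% in B. rapa and 95% in T. durum. Methylation at these neighbours differed from the angiosperm median by 2 and 1 points.

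tRNA Glu(CTC) was the nuclear tRNA with several sites in which G. biloba stayed within the range throughout. C49 was at 94% in G. biloba, 94.3% in A. thaliana, 93% in B. rapa and 96% in T. durum. C50 was at 93% in G. biloba, 93% in A. thaliana, 91% in B. rapa and 93% in T. durum. C48 was at 22% in G. biloba, listed at 0% in A. thaliana and B. rapa, and at 40% in T. durum. It was thus 1 of the 2 sites where G. biloba stood on another side of the threshold than the angiosperm median, 2 points above the threshold in G. biloba.

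In 3 further tRNAs C49 or its neighbour C48 was lower in G. biloba by more than 10 points. In Gln(CTG), C48 was at 71% in G. biloba, 86% in A. thaliana, 100% in B. rapa and 96% in T. durum, and C49 was at 71% in G. biloba, 98% in A. thaliana, 88% in B. rapa and 95% in T. durum. C49 of Arg(ACG) was at 50% in G. biloba, 77.7% in A. thaliana, 72% in B. rapa and 77% in T. durum. C49 of His(GTG) was at 79% in G. biloba, 91% in A. thaliana, 91% in B. rapa and 95% in T. durum. C48 of His(GTG) was at 65% in G. biloba, 13% in A. thaliana, 65% in B. rapa and 84% in T. durum, so that at this site G. biloba lay inside a wide angiosperm range.

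The site furthest below the angiosperms was C48 of Ser(AGA), a tRNA with a long variable arm. It was at 40% in G. biloba, 100% in B. rapa and 87% in T. durum, and was not determined in A. thaliana, so that only 2 angiosperms stand behind the comparison. In the other serine tRNAs compared, G. biloba was above or within the range. C48 of Ser(GCT) was at 92% in G. biloba, 89% in A. thaliana, 91% in B. rapa and 89% in T. durum, 1 point above the range. C48 of Ser(TGA) was at 97% in G. biloba, 100% in A. thaliana, 80% in B. rapa and 85% in T. durum.

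Above the range, besides Ser(GCT), lay C48 of Thr(CGT) and C68 of Lys(CTT). C48 of Thr(CGT) was at 100% in G. biloba, 87% in A. thaliana, 85% in B. rapa and 93% in T. durum. C68 of Lys(CTT) was at 25% in G. biloba, 13% in A. thaliana, 5% in B. rapa and 11% in T. durum, so that all 4 were low and G. biloba alone passed the threshold. Counted from the 3′ end, the letter of the A. thaliana consensus at this position is a thymine (C68T: the base the listed site stands for, the structural position, then the consensus letter), which is the capital T in the sequence above. The consensus collapses 17 genes, and which of them carry a cytosine there was not tested.

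C48 of Lys(CTT) and of Ile(AAT) were the remaining nuclear sites within the range. C48 of Lys(CTT) was at 88% in G. biloba, 88% in A. thaliana, 72% in B. rapa and 91% in T. durum. C48 of Ile(AAT) was at 59% in G. biloba, 33% in A. thaliana, 14% in B. rapa and 76% in T. durum, which placed G. biloba 26 points over the angiosperm median.

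By structural position, G. biloba lay below the range at most nuclear sites other than C48, and on either side at C48. At the 15 nuclear sites other than C48, G. biloba was below the range at 11, within it at 3 and above it at 1, with a median difference of -4 points. At the 12 nuclear sites at C48, it was below at 4, within at 6 and above at 2, with a median difference of 0 and a spread from -53.5 to 26 points. C49 had the lowest median difference of the positions with several sites, -9 points over 7 nuclear sites, 6 of them below the range. The median difference was -2.5 points over 4 sites at C50, with 2 of them below, and -3 points over 2 sites at C38. With the 2 sites at C49 that are not purely nuclear, both listed at 0% in G. biloba, the median at C49 was -2 points.

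The range that G. biloba had to leave was not the same at each position. The angiosperms spanned a median of 16.5 points at C48 and of 3.67 points at the other nuclear sites, so that a smaller difference sufficed to fall outside at the latter. By size rather than by range, the 3 nuclear sites furthest below the angiosperm median were C48 of Ser(AGA) at -53.5 points, C48 of Gly(TCC) at -44 points and C49 of Arg(ACG) at -27 points.

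**Figure D2:**
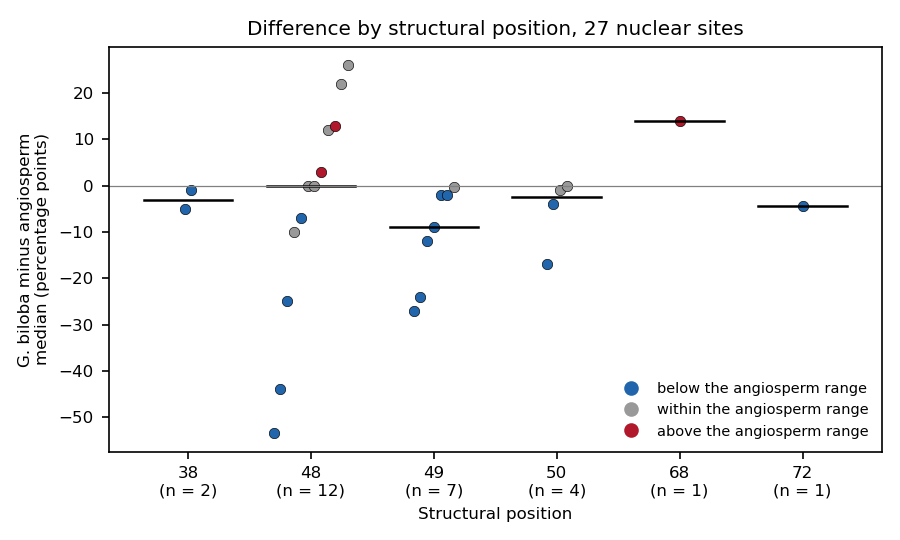
Difference between G. biloba and the angiosperm median (percentage points, vertical axis) at the 27 nuclear sites, by structural position with the number of sites. Each point is 1 site, coloured by its place relative to the angiosperm range, and black lines are medians. Points at 48 spread from -53.5 to 26, and those at 49 lie at or below -0.333.

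Within a tRNA, C49 was methylated at least as highly as C48 in G. biloba. Over the 6 nuclear tRNAs with a number at both positions, C49 exceeded C48 by a median of 25 points in G. biloba, with a range from 0 to 72 points. It was higher in 4 tRNAs and equal in 2, Gln(CTG) and Gly(GCC). The median over the same 6 tRNAs was 22.2 points in A. thaliana, 17 in B. rapa and 8 in T. durum. From C49 to C50 the change was small, with a median of -2 points and a range from -10 to 0 over 4 tRNAs in G. biloba.

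**Figure D3:**
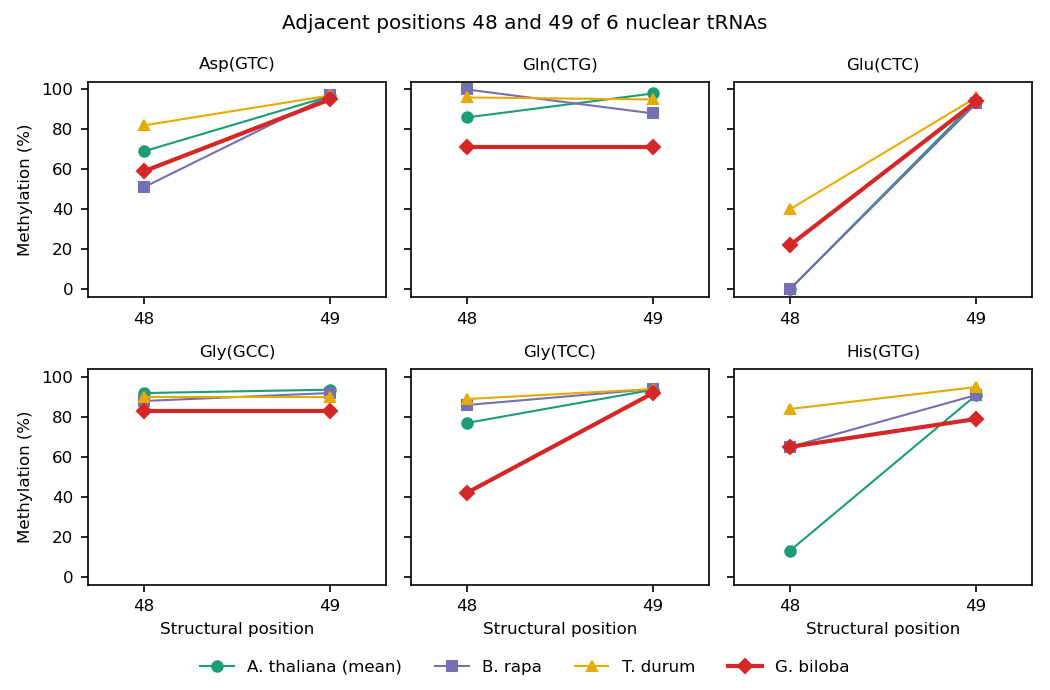
Methylation (%, vertical axis) at the adjacent positions 48 and 49 of 6 nuclear tRNAs, with 1 line per species. The G. biloba line (red) is level in Gln(CTG) and Gly(GCC) and rises by 72 points in Glu(CTC).

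The letters next to C48 divide the sites in the consensus sequences. C48 is followed by a cytosine in 6 of the compared nuclear tRNAs and by a guanine in the other 6. Where a cytosine follows, methylation in G. biloba was between 22 and 83% with a median of 62%, and the median difference from the angiosperm median was -8.5 points. Where a guanine follows, it was between 40 and 100% with a median of 90%, and the median difference was 7.5 points. The angiosperm medians themselves had a median of 77.5% before a cytosine and of 87.5% before a guanine. The differences overlapped widely, from -44 to 22 points before a cytosine and from -53.5 to 26 before a guanine.

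Leaving the range of the others was not particular to G. biloba. When each vascular plant was set against the other 3 over the 26 nuclear sites with a number in all, G. biloba was the lowest at 14 sites (53.8%) and the highest at 3 (11.5%). B. rapa was the lowest at 9 (34.6%) and the highest at 1 (3.85%). A. thaliana was the lowest at 1 (3.85%) and the highest at 7 (26.9%), and T. durum was the lowest at 0 (0%) and the highest at 10 (38.5%). The A. thaliana values are means and the others single libraries, so that they do not carry the same error. By more than 5 points, G. biloba was lowest at 7 sites, B. rapa at 4 and A. thaliana at 1. The site where A. thaliana was lowest, C48 of His(GTG), lay 52 points under the others.

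**Figure D4:**
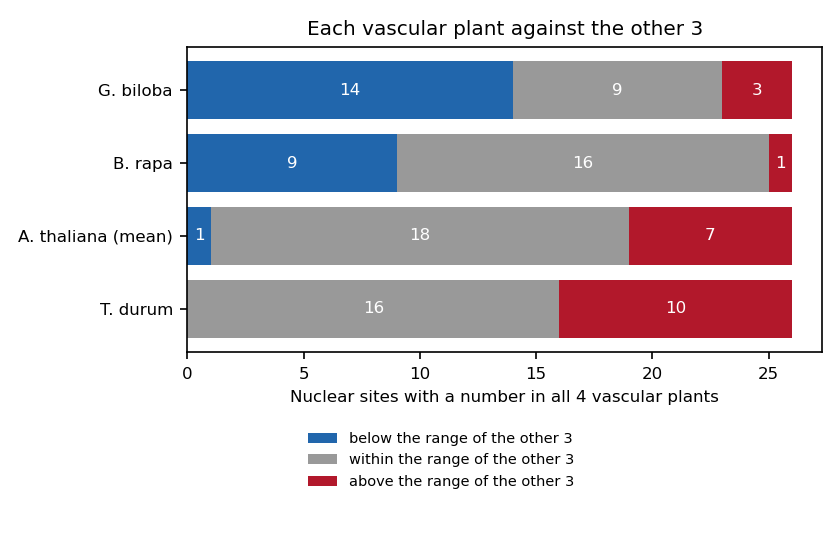
Number of nuclear sites (horizontal axis) at which each vascular plant lay below, within or above the range of the other 3, over the 26 nuclear sites with a number in all 4. G. biloba was below at 14 sites and B. rapa at 9, and T. durum was above at 10.

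By the median absolute difference over the nuclear sites, G. biloba stood further from each angiosperm than the angiosperms stood from each other. Over these 26 sites the median absolute difference was 9.5 points between G. biloba and A. thaliana, 8 points to B. rapa and 7 points to T. durum. It was 3.5 points between A. thaliana and B. rapa, 2 points between A. thaliana and T. durum and 4 points between B. rapa and T. durum. The largest difference at a single site did not follow this order. From G. biloba it was 52 points to A. thaliana, 45 to B. rapa and 47 to T. durum. Among the angiosperms it was 52 points between A. thaliana and B. rapa, 71 between A. thaliana and T. durum and 62 between B. rapa and T. durum. G. biloba was lower than A. thaliana at 18 sites and higher at 6, lower than B. rapa at 14 and higher at 11, and lower than T. durum at 21 and higher at 4. When the 4 other sites were added, the median was 9.5 points to T. durum, 5.17 points to A. thaliana and 4.5 points to B. rapa, which equals the 4.5 points between B. rapa and T. durum.

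These 4 sites are in chloroplast tRNAs or in a tRNA that the nuclear and the chloroplast genome share, and all were listed at 0% in G. biloba. C49 of the chloroplast Cys(GCA) was listed at 0% in A. thaliana and B. rapa and at 89% in T. durum. C48 of the chloroplast Glu(TTC) was listed at 0% in A. thaliana and B. rapa and at 90% in T. durum. C49 of Leu(TAG), of nuclear or chloroplast origin, was listed at 0% in A. thaliana and B. rapa and at 92% in T. durum. C48 of the chloroplast initiator tRNA Met_i(CAT) was listed at 0% in all 4 vascular plants. G. biloba thus had the same value as A. thaliana and B. rapa at all of them, and the depth behind these zeros is unknown.

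G. biloba also had numbers at 2 sites of Leu(CAA) that no more than 1 angiosperm shared, so that no range could be formed. C34, the wobble base of the anticodon and a known target of Trm4 in yeast, is the first capital in the A. thaliana consensus, which stands for 10 genes, the first listed at chr1:6948860-6948943.
tRNA Leu(CAA): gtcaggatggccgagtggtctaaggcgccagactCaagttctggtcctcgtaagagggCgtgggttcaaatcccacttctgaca
C34 was at 20% in G. biloba, on the threshold, and at 89% in B. rapa. C48, at the base of the long variable arm, was at 60% in G. biloba and at 75% in B. rapa. Both were lower in G. biloba, and neither was determined in A. thaliana or T. durum.

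Another base is listed for G. biloba in place of a cytosine at 3 sites. In the nuclear Arg(CCG) the entry is C49G (the base the listed site stands for, the structural position, then the base listed for G. biloba), and A. thaliana and B. rapa have the same entry, while T. durum was at 52%. The A. thaliana consensus, which stands for 3 genes, the first listed at chr1:5619471-5619543, shows it as the capital.
tRNA Arg(CCG): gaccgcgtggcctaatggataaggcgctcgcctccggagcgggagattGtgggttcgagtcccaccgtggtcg
In Glu(TTC) of nuclear or mitochondrial origin the entry is C39G, and in Asp(GTC) of nuclear, mitochondrial or chloroplast origin it is C38A. At both sites the other vascular plants and the alga Caulerpa taxifolia share the entry, while N. oculata was at 38% and 36%. At all 3 sites the letter in the A. thaliana consensus is the one listed for G. biloba. The G. biloba reads were aligned to this list and to tRNAs of the closest annotated relative. How far these entries, and the G. biloba percentages at the other sites, depend on those references was not tested.

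The remaining 23 sites, in 17 isodecoders, were not determined in G. biloba. Of these isodecoders 15 are nuclear: Ala(AGC), Ala(CGC), Ala(TGC), Arg(TCG), Arg(CCT), Gln(TTG), Glu(TTC), Gly(CCC), Leu(CAG), Leu(TAA), Lys(TTT), Ser(CGA), Thr(AGT), Thr(TGT) and Val(CAC). The other 2 are Met_e(CAT) of the chloroplast and Arg(TCT) of the mitochondria. Of the 30 nuclear isodecoders in the table, 14 had a number in G. biloba, compared with 24 in A. thaliana, 22 in B. rapa and 21 in T. durum, and with 13 and 8 in the algae Caulerpa taxifolia and N. oculata. Each isodecoder had either numbers, another base or no determined value throughout in G. biloba.

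Of the undetermined sites, 10 had a number in all 3 angiosperms, and these lie in 5 tRNAs, Gln(TTG), Glu(TTC), Gly(CCC), Thr(TGT) and Val(CAC). A further 3 sites had a number in 2 angiosperms, 6 in 1 and 4 in none. Gly(CCC) and C49 and C50 of Glu(TTC) were highly methylated in the angiosperms, between 71 and 97%. Gln(TTG), the most variable tRNA of this set, ranged from 8 to 92% at C48 and from 0 to 69% at C49 in the angiosperms. The abundance of these tRNAs in G. biloba was not analysed here. In the A. thaliana RNA-seq library the nuclear isodecoders undetermined in G. biloba had a median of 2.39 RPM, the authors' abundance unit scaled to library size (n = 15, from 0 to 279), and those with a number had 3.76 RPM (n = 14, from 0.34 to 627), so that the groups overlapped.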

How the data were processed

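The authors trimmed and filtered reads and aligned them with CLC Genomics Workbench (version not given in the sources used here) to tRNA sequences converted in silico, namely the A. thaliana consensus list (TAIR10 per the labels) and, for other species, also tRNAs of the closest annotated relative. Methylation was deposited as percent, with at least 5 reads per tRNA, and A. thaliana abundance was deposited by the authors as RPM. Cells given as N.D. or as another base were kept apart from numbers.

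For each site with a number in G. biloba and at least 2 of the 3 angiosperms, the range and median of the angiosperms were computed, without a test, in Python 3.11.15 with pandas 2.3.3 and NumPy 2.4.6, and drawn with Matplotlib 3.10.9. Positions from 48 on were counted from the 3′ end, and positions 34 to 39 from the anticodon. The functions were tested on simulated data.

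Sites outside the range or across the threshold, and all sites of Asp(GTC), the glycine tRNAs, Glu(CTC), His(GTG) and Leu(CAA), were to be named, together with undetermined isodecoders. The members, lists and alternatives were chosen with earlier results of these data known. Alternatives were other minimum numbers of angiosperms, each angiosperm or tRNA left out, margins, thresholds and means. Further ones were 1 value per tRNA, nuclear sites only and other bases counted as 0. Ribosomal RNAs, mutants and the RNA-seq libraries of other species were not analysed here.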

Additional observations from a re-analysis of the deposited data

How the results depend on the processing

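The 14 summary values were recomputed under 129 alternatives. Counts were held to be the same within 1.5 times, and medians when they moved by less than 4.16 points, the median SD among the angiosperms over the compared sites. This limit is wider than the size of each median difference from the angiosperm median. Those were -1 point over all sites, 0 at C48, -2 at C49, -2.5 at C50 and -3 at C38. For them, being held the same does not show stability. Counts and absolute differences cannot change sign, and none of the remaining values that stood above or below 0 did so. Of the alternatives, 114 stayed the same, including all 46 that leave out 1 tRNA. Over all compared sites the median difference of -1 point became 0 with 1 value per tRNA and -4 without A. thaliana. With a margin of 5 points, 8 sites lay below and 21 within the range, and with a margin of 10 points 6 lay below, 24 within and 1 above. Without T. durum among the angiosperms, 5 sites lay above. At C49 the median difference of -2 points became -13.3 with the mean of the angiosperms, -14 without A. thaliana, -14 without B. rapa, -9 over nuclear sites and -9 over sites with an angiosperm median at the threshold. With 1 tRNA left out it ranged from -5.5 to -2 at C49, -5 to -1 at C38, -4 to -1 at C50 and -2 to -0.167 over all sites, and stayed at 0 at C48. The median of 0 at C48 became -3 without A. thaliana, 2 without T. durum and 1.17 with the mean of the angiosperms, so that its sign depended on the angiosperms used. The number of sites across the threshold was 1 at 10%, 0 at 30% and 1 at 40%, against 2 at 20%. The median absolute difference from A. thaliana was 9.5 points over nuclear sites against 5.17 over all. Leaving out each A. thaliana replicate was not run, since the values are means. Differences between species were taken site by site. No analysis paired by replicate was possible, because the A. thaliana replicates are averaged and the other species have 1 library each. No test was made.

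Depth per site is unknown beyond the minimum of 5 reads, so that no counting error can be given for any difference, small or large. Sites of 1 tRNA come from the same library and are not independent.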

Other observations

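Over the nuclear compared sites that the algae share, G. biloba was more methylated than either alga. With C. taxifolia it shared 14 sites, was higher at 12 and lower at 2, and had a median of 84.5% against 60.5%. With N. oculata it shared 17 sites, was higher at 15 and lower at 2, and had a median of 91% against 64%. The median absolute difference over the same sites was 30 points from C. taxifolia and 8 points from the angiosperm median, and 26 points from N. oculata and 4.33 points from the angiosperm median. Each alga is 1 library, and no test was made.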
